A study of Xenopus laevis with 4 samples.

Results

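The nuclear pore complex and the carriers that pass through it were read on these arrays by 67 probesets of 39 genes, out of 15491 probesets tested. The L and S copies of a gene are counted together here, and the 39 genes had 49 symbols. They were chosen by gene name alone, as every probeset with a single symbol for a numbered nucleoporin, an importin (KPNA, KPNB, IPO or TNPO), an exportin (XPO), Ran or a protein named for binding it, RCC1, NUTF2, NXF1 or NXT1. No probeset of NXT1, and none of NUTF2 with a single symbol, was among them. The choice of genes was made with earlier results of these data known. N1 pseudoblastemas came from transgenic X. laevis tadpoles in which heat shock switches on Noggin, a secreted inhibitor of BMP ligands. The transgene uses an Hsp70 promoter that is not limited to a cell type. WT blastemas came from siblings without the transgene. In the authors' toe counts after heat shock and ankle amputation, most N1 limbs failed to regenerate and most WT limbs regenerated, with exceptions in both groups. Both groups were amputated on both hindlimbs at the future ankle at NF stage 52, received the same heat shocks before and after amputation, and were collected at 3 days. The heat shock treatment is therefore shared by the controls, but the response to it need not be. The authors mention, without showing data, a general rise of Hsp60 transcripts in heat-shocked WT animals that did not seem apparent in N1 siblings. Each group had 2 arrays, each from a separate pool of 20 hindlimbs, and the N1 line goes back to 1 founder with a single insertion.

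Nuclear pores are channels in the nuclear envelope built from rings of nucleoporins, with filaments on the cytoplasmic side and a basket on the nuclear side. Carriers of the importin beta family take proteins and RNA through the channel, and the small GTPase Ran sets the direction: it is bound to GTP in the nucleus, where RCC1 loads it, and to GDP in the cytoplasm, where RanGAP1 with RanBP1 and RanBP2 makes it hydrolyse GTP. Importers release their cargo on meeting Ran-GTP and exporters pick theirs up with it. In extracts of Xenopus eggs this machinery is also known for its part in assembling the spindle and the nuclear envelope.

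Signals were MAS5 values on a linear scale with array medians of 157 to 175, and the median level over all probesets was 165. Of the 67 probesets, 47 lay at or above that level, 20 below it and 9 among the dimmest 25%. A lens promoter drives GFP from the same transgene, and a GFP control probeset read 123 and 108 in N1 and 16.1 and 29.4 in WT. The Noggin probeset, whose place in the transcript is not known here, read 75.6 and 52.2 in N1 and 91.8 and 95.5 in WT. The ratio of the 3 prime to the 5 prime beta actin control probeset was 10.6 and 6.73 in N1 and 5.04 and 11.4 in WT. It differed widely within both groups, and its part in the differences between arrays was not tested. Markers of other tissues differed between the groups. The summed signal of 12 red cell probesets was 76331 and 97806 in N1 and 38829 and 31428 in WT, that of 22 epidermal probesets 22544 and 26914 in N1 and 18405 and 16155 in WT, and that of 7 cartilage probesets 1588 and 1774 in N1 and 2974 and 2182 in WT. The sums of 28 skeletal muscle probesets (4711 and 3878 in N1, 3428 and 3226 in WT) and of 9 pigment cell probesets (5338 and 3098 in N1, 2182 and 2290 in WT) were highest on the array of N1 replicate 1. Such sums weigh bright probesets most. Only 2 of the 28 muscle probesets lay at or above the median level, and these differed little between the groups. A ckm.L probeset was at 1384 and 1671 in N1 and 1342 and 1308 in WT. An atp2a1.S probeset was at 975 and 1356 in N1 and 1252 and 1080 in WT. By single probesets at an unadjusted p under 0.05 (limma, described below), 4 of the muscle list were higher in N1 and 0 lower. For epidermis these were 7 and 1, for red cells 7 and 0, for pigment cells 3 and 0 and for cartilage 0 and 3. For limb bud mesenchyme they were 1 and 2 and for leucocytes 0 and 0, beside 6.82% and 4.29% of all probesets. The summed signal of limb bud mesenchyme genes (26 probesets) was 8134 and 10125 in N1 and 9036 and 8755 in WT. That of leucocyte genes (8 probesets) was 2164 and 1911 in N1 and 1979 and 1904 in WT. No listed marker was at 0 on any array, but this does not show that each was present. No detection calls were used, and signals were as low as 1.65 for a mitf.L probeset on the array of WT replicate 2. The part of these tissues in the differences below was not tested, and in pooled tissue fewer cells of a type and less RNA per cell cannot be told apart.

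Nuclear transport genes were mostly lower in N1 pseudoblastemas than in WT blastemas, by small amounts, and none passed the test singly. The median log2 difference of N1 minus WT was -0.26 over the 67 probesets, against 0.07 over all probesets, and 49 of them lay below 0 (73.1%, against 44.1% of all probesets). At or above the median level the median was again -0.26, against -0.00403 over all such probesets, and 36 of 47 lay below 0 (76.6%, against 50.5%). In limma (empirical Bayes with a variance trend), 0 members had an adjusted p under 0.05, where 0.0129% of all probesets were lower in N1 and 0.11% higher (0.0129% and 0.181% at or above the median level), and the smallest was 0.181, for ranbp1.L. At an unadjusted p under 0.05 there were 8 members lower in N1 (11.9%, against 4.29% of all probesets) and 1 higher in N1 (1.49%, against 6.82%). At or above the median level these were 7 of 47 lower (14.9%, against 7.02%) and 1 higher (2.13%, against 8.31%). Median centring of the arrays shifted the difference of all probesets by -0.11 and gave 13 lower and 0 higher, where 6.64% and 4.92% of all probesets were lower and higher at that p, with a median of -0.37 for the members and of -0.04 for all probesets. Both N1 arrays lay below both WT arrays in 24 members (35.8%, against 17.9% of all probesets), from 16 genes, and above them in 6 (8.96%, against 24.2%). At or above the median level this held for 19 (40.4%, against 24.1%) and 3 (6.38%, against 23.2%). Differences over 1.5-fold numbered 15 lower in N1 (22.4%, against 9.98%) and 2 higher (2.99%, against 18.9%), and at or above the median level 9 lower (19.1%, against 6.48%) and 0 higher (against 8.33%). The 8 probesets lower at an unadjusted p under 0.05 came from 6 genes. With only the brightest probeset of each gene, 4 of 39 were lower in N1 at that p (10.3%, against 4.17%).

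**Figure D1:**
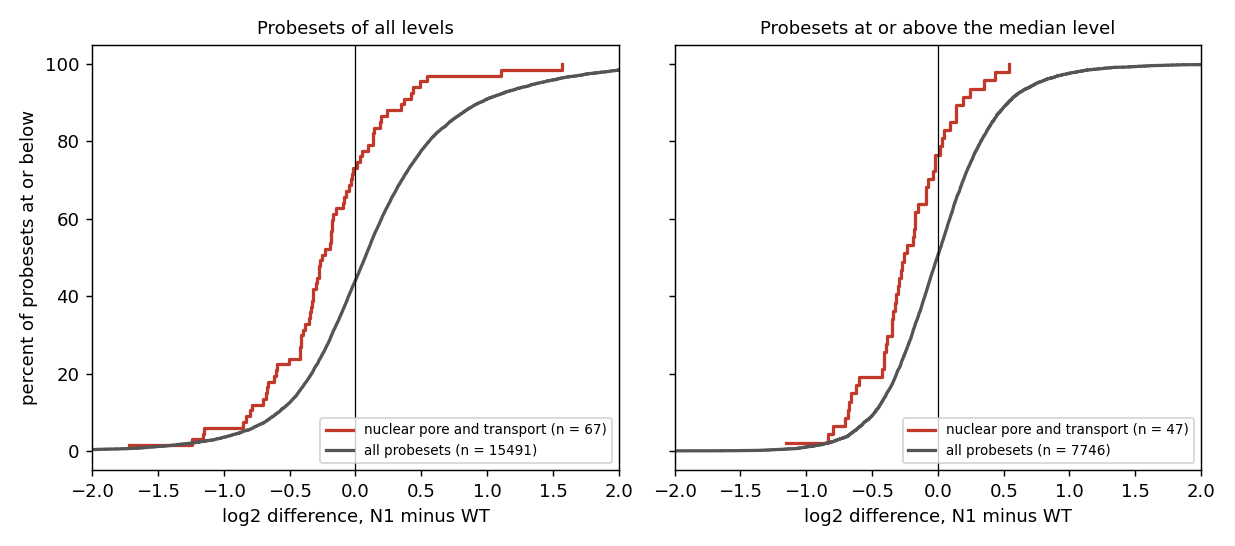
Cumulative share of probesets (percent, y axis) by log2 difference of N1 minus WT (x axis, drawn from -2 to 2), for the 67 nuclear pore and transport probesets and all 15491 probesets (left), and for those at or above the median level (right, 47 and 7746). The curve of the members runs to the left of that of all probesets through most of its range, with medians of -0.26 and 0.07 in the left panel.

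Of the genes of the Ran cycle, ranbp1 and ranbp2 had the probesets with an unadjusted p under 0.05, all lower in N1, and none had an adjusted p under 0.05. RanBP1 binds Ran-GTP in the cytoplasm and speeds its hydrolysis, and it was read by 3 probesets. The L copy (ranbp1.L) read 783 and 1421 in N1, against 2445 and 2259 in WT. The groups did not overlap, and the N1 mean was 46.9% of the WT mean, although the N1 replicates themselves stood far apart. Its log2 difference was -1.16 ± 0.27 (SE; adjusted p = 0.181 from limma). The S copy was at 1730.5 and 1749 in N1 and 2347 and 3289 in WT by the dimmer probeset, where the spread lay in WT. By the brighter probeset it was at 2053 and 3004 in N1 and 3670.5 and 3842 in WT. All 3 probesets therefore had both N1 signals below both WT signals, with N1 means of 61.7% and 67.3% of the WT means for the S copy (log2 differences of -0.68 ± 0.21 and -0.60 ± 0.21; adjusted p = 0.282 and 0.355). Both S probesets were designed on 1 transcript cluster and are not independent of each other.

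RanBP2, the large nucleoporin of the cytoplasmic filaments that holds RanGAP1 at the pore, was alike. A probeset of ranbp2.L had signals of 712 and 929.5 in N1 and 1300.2 and 1616 in WT, a log2 difference of -0.83 ± 0.22 (adjusted p = 0.215 from limma). The other probeset of the L copy was at 661 and 1166 in N1 and 1121 and 1622 in WT, and here the groups overlapped. The S copy was at 1455 and 1582 in N1 and 1885 and 1919 in WT, without overlap and with a smaller log2 difference of -0.33 ± 0.18. RanGAP1, which makes Ran hydrolyse its GTP, was at 1631 and 1737 in N1 and 2349 and 1879 in WT by the L copy (log2 difference of -0.32 ± 0.19), and at 37.3 and 37.6 in N1 and 40.7 and 54.5 in WT by the dim S copy. RCC1, the exchange factor that sits on chromatin, had L copy signals of 708 and 545 in N1 and 712 and 923 in WT, so that the higher N1 array was close to the lower WT array. Its S copy was at 319.6 and 218 in N1 and 336 and 314 in WT by its brighter probeset, and at no more than 10.9 on any array by the other.

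Ran (ran.S), the GTPase on which all of this turns, had signals of 16070.5 and 14509 in N1 and 15965 and 16568 in WT. The groups overlapped, and the 95% interval of the log2 difference ran from -0.48 to 0.30. Its level lay in the top 1% of all probesets. Whether Ran differed from its regulators in its change was not tested. RanBP3, a cofactor of the exporter XPO1, was read by 4 probesets of ranbp3.L. The only one above the median level was at 592 and 654 in N1 and 739.6 and 676 in WT (log2 difference of -0.18 ± 0.21). Of the 3 dim ones, 1 was lower and 1 higher in N1 without overlap, at 5.45 and 6.23 in N1 against 8.90 and 12.5 in WT and at 32.1 and 20.4 in N1 against 10.1 and 14.0 in WT, and the last (105 and 203 in N1, 149 and 119 in WT) overlapped. Over the 16 probesets of these 6 genes 13 had a log2 difference below 0, beside 44.1% of all probesets, and the median was -0.33. Without overlap 10 were lower and 1 higher in N1, beside 17.9% and 24.2% of all probesets, and the other 5 overlapped. Of the 16, 11 lay at or above the median level, and all 11 were below 0 (log2 differences from -1.16 to -0.09). At that level 50.5% of all probesets were below 0, 24.1% were lower without overlap and 23.2% higher. The counts without overlap given for the 16 are over all levels.

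NTF2, the factor that carries Ran back into the nucleus, was read by a probeset with 2 symbols and so is not counted among the members. It had signals of 1683 and 2335 in N1 and 1364 and 1849 in WT, with overlap and a log2 difference of 0.32 ± 0.23 (adjusted p = 0.658 from limma).

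**Figure D2:**
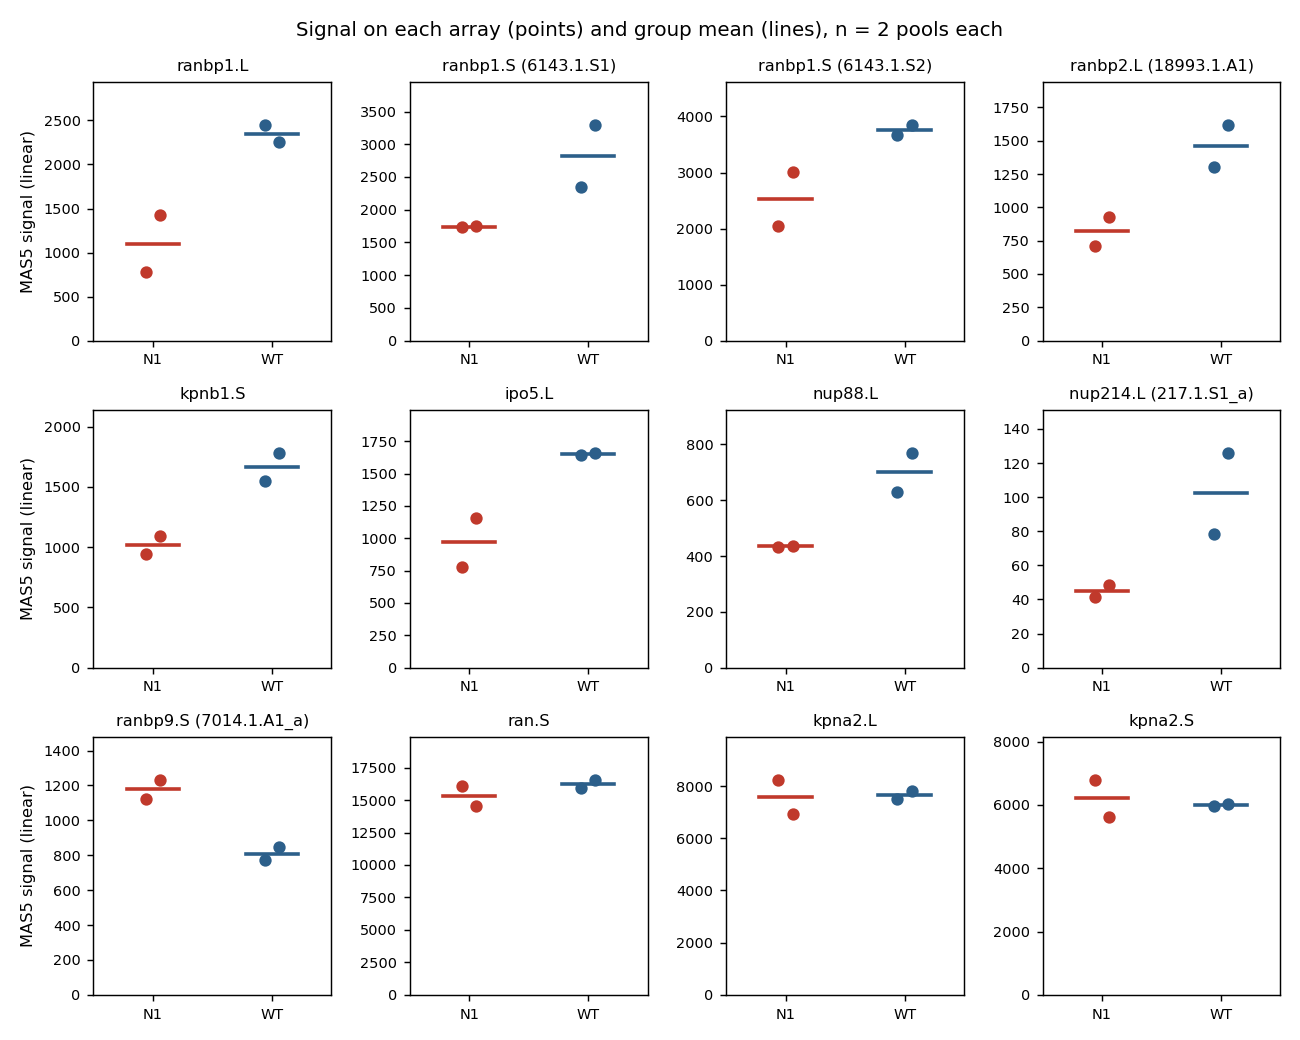
MAS5 signal (linear scale from 0, y axis, a separate scale in each panel) on each N1 array (left, red) and WT array (right, blue) for the 9 members at an unadjusted p under 0.05, and for ran.S and both copies of kpna2. Points are pools and lines are means of 2 pools. In the first 8 panels both N1 points lie below both WT points, in that of ranbp9.S both lie above, and in the last 3 they overlap.

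Among the importers, kpnb1.S and ipo5.L were lower in N1 at an unadjusted p under 0.05, and no importer or adaptor had an adjusted p under 0.05. Importin beta 1 (kpnb1.S), the main import carrier, had signals of 947 and 1095 in N1 and 1545 and 1786 in WT. Both N1 arrays lay well below both WT arrays, the N1 mean was 61.3% of the WT mean, and the log2 difference was -0.71 ± 0.19 (adjusted p = 0.228 from limma). Importin 5, which takes ribosomal proteins and histones into the nucleus, had L copy signals of 780 and 1160 in N1 and 1645.5 and 1662 in WT. The WT arrays were nearly equal and the N1 arrays were not, with a log2 difference of -0.80 ± 0.23 (adjusted p = 0.244). Its S copy was at 493 and 821 in N1 and 1032 and 694 in WT, with overlap. Importin 7 (ipo7.L), another importer of ribosomal proteins, was at 707 and 789 in N1 and 588 and 781 in WT, and its log2 difference of 0.14 ± 0.23 had the other sign.

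The transportins take up RNA-binding proteins and splicing factors. Transportin 3 (tnpo3.S), the importer of SR splicing factors, was at 1574 and 1383 in N1 and 1518 and 1624 in WT, and transportin 2 (tnpo2.S) at 279 and 193 in N1 and 304 and 229 in WT. Both overlapped, with 95% intervals of the log2 difference from -0.51 to 0.33 and from -0.90 to 0.52. The 3 probesets of transportin 1 (tnpo1.L) were all below the median level and did not go the same way: 41.4 and 38.4 in N1 against 55.9 and 84.2 in WT, 87.2 and 47.2 in N1 against 116 and 81.8 in WT, and 77.8 and 64.9 in N1 against 58.0 and 44.1 in WT. The first and second are versions of 1 probeset design, of which the second (ending in _x_at) may also bind other transcripts.

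Importin alphas bind the classical nuclear localisation signal and link its carrier protein to importin beta. Importin alpha 1, encoded by kpna2, had L copy signals of 8246 and 6924 in N1 and 7523 and 7806 in WT, and S copy signals of 6794 and 5618 in N1 and 5950 and 6016 in WT. In both copies the WT signals lay between the N1 signals, and the 95% intervals of the log2 difference were -0.42 to 0.38 and -0.36 to 0.45. The sign of the small S copy difference turned with median centring. The kpna3.L probesets disagreed. The first was at 1055 and 1286 in N1 and 1463 and 1326 in WT, and the second at 1048 and 852 in N1 and 1114 and 1109 in WT. Both were lower in N1 without overlap, while the third was at 1153 and 763 in N1 and 847 and 744 in WT and overlapped. Of the other adaptors, kpna4.S was at 1304 and 1945 in N1 and 1916 and 1994 in WT, and kpna6.S at 572 and 636 in N1 and 629 and 736 in WT. Both overlapped, with log2 differences of -0.30 ± 0.22 and -0.17 ± 0.21. The adaptor encoded by kpna7, known from oocytes and early embryos, was among the dimmest probesets of the array. Its signals were at most 27.0 by the L copy and 4.90 by the S copy. Whether importin beta differed from the adaptors in its change was not tested.

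Of the 4 exporter probesets 3 had a log2 difference below 0, as did both of the mRNA export receptor, beside 44.1% of all probesets, and none had an unadjusted p under 0.05. XPO1, the carrier for proteins with a leucine-rich export signal, read 681 and 1294 in N1 and 1174 and 1108 in WT (xpo1.S). The N1 arrays lay on either side of the WT arrays, and without N1 replicate 1 the log2 difference turned to 0.18. XPO7 (xpo7.L), an exporter with a broad set of cargoes, was at 325 and 389 in N1 and 550 and 407 in WT, lower in N1 without overlap (log2 difference of -0.41 ± 0.26). XPO6 (xpo6.L), the exporter of actin with profilin, was at 561 and 458 in N1 and 444 and 316 in WT, higher in N1 without overlap (0.44 ± 0.26). Neither passed (adjusted p = 0.603 and 0.585 from limma). XPO4 (xpo4.L) was dim, at 75.1 and 128 in N1 and 118 and 107 in WT. NXF1, which carries mRNA out through the pore, was at 634 and 529 in N1 and 565 and 625.6 in WT by the brighter probeset of nxf1.S, and at 176 and 91.5 in N1 and 136 and 127 in WT by the other. Both overlapped, and the 95% interval of the first was -0.54 to 0.46.

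**Figure D3:**
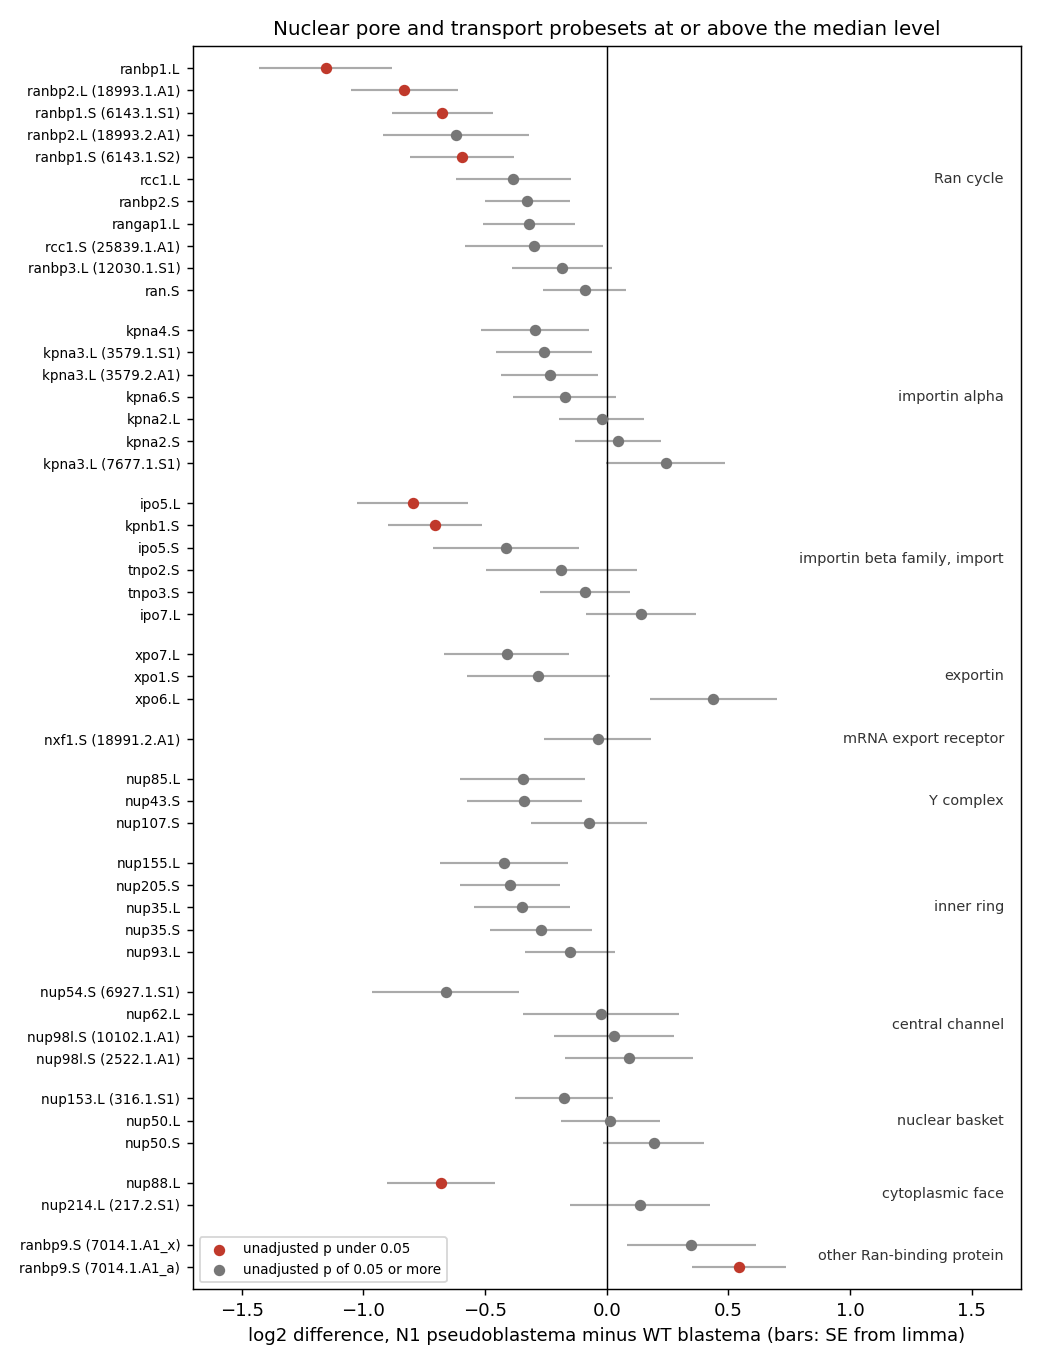
Log2 difference of N1 minus WT (x axis) with its standard error from limma (bars) for the 47 members whose level reached the median of the whole array, grouped by role (y axis). The points past an unadjusted p of 0.05 are ranbp1, ranbp2.L, ipo5.L, kpnb1.S and nup88.L on the N1-lower side and ranbp9.S on the N1-higher side.

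Of the nucleoporins, the inner ring had small differences and no probeset with an adjusted or unadjusted p under 0.05. This ring lines the pore and ties it to the membrane. All 5 probesets of its 4 genes had a log2 difference below 0, between -0.42 and -0.15, and 3 of them were lower in N1 without overlap. All 5 were at or above the median level, where 50.5% of all probesets were below 0 and 24.1% lower without overlap. NUP205 (nup205.S) was at 1113 and 859 in N1 and 1298 and 1277 in WT, with a log2 difference of -0.40 ± 0.20 (adjusted p = 0.529 from limma). NUP35 was at 652 and 637 in N1 and 826 and 816 in WT by the L copy, and at 525 and 604.5 in N1 and 682 and 677 in WT by the S copy. In each copy replicates differed less than groups, and the log2 differences were -0.35 ± 0.20 and -0.27 ± 0.21 (adjusted p = 0.561 and 0.679). NUP155 (nup155.L, 538 and 620 in N1, 613 and 975 in WT) and NUP93 (nup93.L, 3515 and 2805 in N1, 3415 and 3556 in WT) overlapped.

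The Y complex, the outer ring scaffold that also seeds pores on chromatin after mitosis, was read by 3 probesets, and none was set apart. NUP85 (nup85.L) was at 1273 and 799 in N1 and 1432 and 1148 in WT, NUP43 (nup43.S) at 789 and 1195 in N1 and 1180 and 1277 in WT, and NUP107 (nup107.S) at 462 and 386 in N1 and 410 and 480 in WT. The log2 differences ranged from -0.35 to -0.07.

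On the cytoplasmic face, where exported cargo is let go, NUP88 (nup88.L) was at 432 and 438 in N1 and 629 and 771 in WT. The N1 arrays were nearly equal and below both WT arrays, and the log2 difference was -0.68 ± 0.22 (adjusted p = 0.308 from limma). Its dimmer S copy was at 111 and 75.7 in N1 and 89.995 and 136 in WT. NUP214, the partner of NUP88, was read by probesets that did not agree. The dim one of nup214.L had signals of 41.4 and 48.6 in N1 and 78.2 and 126 in WT (log2 difference of -1.15 ± 0.47, adjusted p = 0.419), while the other, above the median level, was at 447 and 379 in N1 and 474 and 296 in WT (0.14 ± 0.29).

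The central channel holds the FG repeats through which carriers pass. NUP54 (nup54.S) was at 241 and 420 in N1 and 493 and 514 in WT by its brighter probeset, lower in N1 without overlap (log2 difference of -0.66 ± 0.30, adjusted p = 0.469 from limma), with N1 replicate 1 the lowest. The dim probesets of nup54.S (23.3 and 6.59 in N1, 45.0 and 19.1 in WT) and of nup58.L (45.3 and 30.9 in N1, 59.2 and 42.6 in WT) overlapped. Its partners overlapped between the groups: NUP62 (nup62.L) was at 580.5 and 303 in N1 and 412 and 443 in WT, and the brighter probeset of nup58.L at 139 and 161 in N1 and 145 and 199 in WT. Both probesets of nup98l.S, named as a relative of NUP98, overlapped (716 and 486 in N1 against 580.4 and 574 in WT, and 552 and 542 in N1 against 411 and 641 in WT). In the basket on the nuclear side, NUP153 was at 618 and 673 in N1 and 723 and 734 in WT by the brighter probeset of nup153.L, a log2 difference of -0.18 ± 0.20 without overlap, and its dim probeset was at 33.6 and 4.81 in N1 and 43.1 and 40.7 in WT. NUP50, which moves between pore and nucleoplasm, overlapped in both copies (904 and 1133 in N1 against 997 and 1007 in WT for nup50.L, and 2012 and 1464 in N1 against 1538 and 1467 in WT for nup50.S). NUP210, anchored in the membrane, was at most 8.69 on any array and was not measured usefully.

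RanBP9 was the only gene with a member higher in N1 at an unadjusted p under 0.05. Despite its name it is a scaffold protein of a ubiquitin ligase complex and no transport factor. The brightest probeset of ranbp9.S had signals of 1125 and 1233 in N1 and 771 and 847 in WT, 146% of the WT mean, without overlap (log2 difference of 0.54 ± 0.19, adjusted p = 0.352 from limma). A related probeset, which may also bind other transcripts, was at 573 and 384 in N1 and 365 and 373 in WT, also without overlap, with N1 replicate 1 far above the rest. The third probeset, at no more than 33.4 on any array, overlapped.

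Several probesets for 1 gene allowed the readings to be set against each other. Of 20 genes with more than 1 probeset (48 probesets), 6 had differences of both signs: kpna2, kpna3, nup214, tnpo1, ranbp3 and rcc1. In nup214, rcc1 and ranbp3 a single probeset lay at or above the median level, or those that did had the same sign, and in tnpo1 none lay there. In kpna2 the probesets read the L and the S copy, and both differences were near 0. Only for kpna3 did probesets above the median level that differed by more than 0.1 point in opposite directions. All 3 probesets of ranbp1, all 3 of ranbp2 and both of ipo5 had a log2 difference below 0, across L and S copies. Those of nup35, nup54, nup58, nup88, nup153, nxf1 and rangap1 were also all below 0, and those of nup50, nup98l, kpna7 and ranbp9 all above 0. Probesets of 1 gene read the same RNA pools, so they are not independent of each other.

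**Figure D4:**
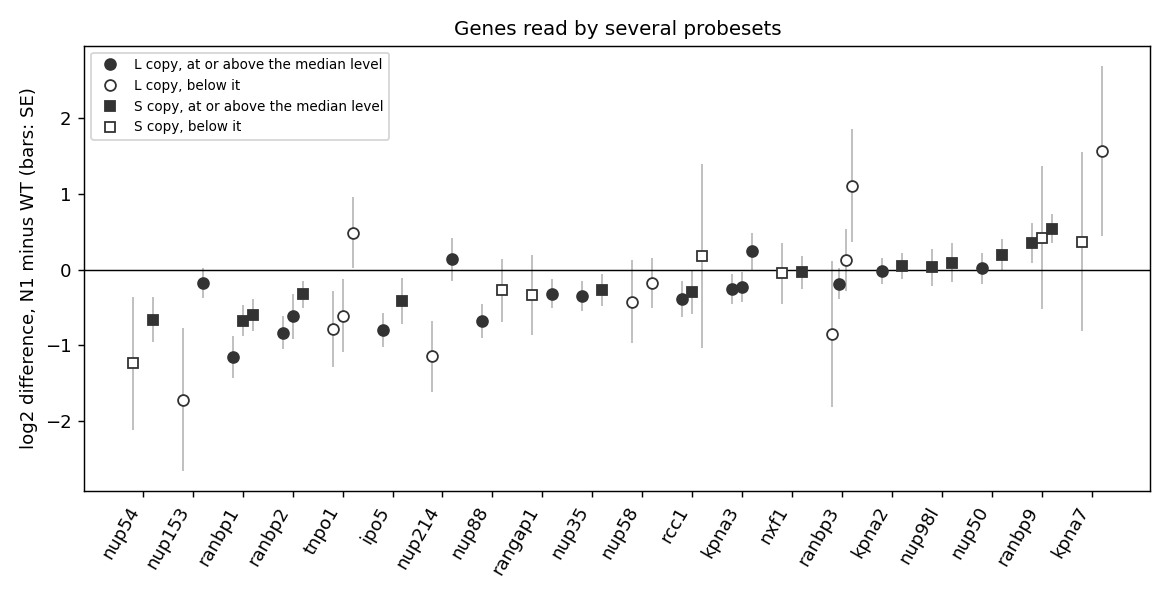
Log2 difference of N1 minus WT (y axis) with its standard error from limma (bars) for the 48 probesets of the 20 genes read more than once (x axis, ordered by median). Circles are L copies, squares S copies, and filled symbols mark levels that reached the median of the whole array. The 3 points of ranbp1 and of ranbp2 are all filled and below 0, while the open points scatter widely.

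The number of members past an unadjusted p of 0.05 moved with the arrays. Without WT replicate 2 it was 2 lower in N1 (ranbp1.L and ipo5.L) and 0 higher, and without N1 replicate 2 it was 15 and 4. All probesets moved too, with 1.4% lower and 3.83% higher without WT replicate 2, and 8.15% lower and 9.52% higher without N1 replicate 2. In that last fit the lone N1 array is assumed to vary like the WT arrays, and adjusted calls rose over all probesets as well as among the members. There the log2 differences of ranbp1.L, ipo5.L and the brighter probeset of ranbp1.S were -1.59, -1.08 and -0.87. Without N1 replicate 1, the array with the high muscle and pigment signals, the median log2 difference of the members was -0.21 and 10 were lower and 1 higher at that p, beside 6.07% and 6.26% of all probesets. The log2 difference of ranbp1.L ranged from -1.59 to -0.73 with an array left out, and that of kpnb1.S from -0.81 to -0.60. That of the brighter probeset of ranbp1.S ranged from -0.87 to -0.32. At that p, ranbp1.L was kept under all 12 alternatives that could be run on it. Without WT replicate 2 kpnb1.S, ranbp2.L, nup88.L, nup214.L, ranbp9.S and both probesets of ranbp1.S were lost, and without the variance trend ipo5.L, nup88.L, ranbp9.S and both probesets of ranbp1.S. The median of the members stayed below 0 under every alternative run, between -0.37 and -0.16.

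Of 46 other genes of nuclear transport listed under names outside the rule, among them scaffold nucleoporins without a number and factors that prepare mRNA for export, 31 were read by 43 probesets. Of these 33 had a log2 difference below 0, beside 44.1% of all probesets, with a median of -0.19 beside 0.07. Without overlap 14 were lower in N1 and 3 higher, beside 17.9% and 24.2%. Of the 43, 34 lay at or above the median level. There 50.5% of all probesets were below 0, 24.1% were lower without overlap and 23.2% higher, while the counts given for the 43 are over all levels. At an unadjusted p under 0.05 there were 2 of 43, both lower in N1, a share near the 4.29% of all probesets. DDX39B (ddx39b.L), which loads export factors onto mRNA, was at 945 and 939 in N1 and 1410.3 and 1483 in WT, and its log2 difference was -0.62 ± 0.18 (adjusted p = 0.263 from limma). DDX19B (ddx19b.S), which strips them off at the cytoplasmic face beside NUP214, was at 465 and 381 in N1 and 604 and 684 in WT (-0.61 ± 0.23, adjusted p = 0.374). None had an adjusted p under 0.05.

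For the nuclear envelope and lamina, 13 of 19 listed genes were read by 19 probesets, and 10 of these were below 0, beside 44.1% of all probesets, with a median of -0.03. At an unadjusted p under 0.05 there was 1 of 19, lower in N1, a share near the 4.29% of all probesets. It read lamin B1, a filament protein under the inner membrane, and lmnb1.L was at 2261 and 2040.3 in N1 and 2797 and 3011 in WT (log2 difference of -0.43 ± 0.17, adjusted p = 0.413 from limma). Its S copy was at 636 and 319 in N1 and 1239.8 and 460.5 in WT, with overlap and replicates that stood far apart in both groups.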

How the data were processed

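The authors hybridised 4 RNA samples, amplified by a 2-cycle kit, to Affymetrix X. laevis GeneChips, and deposited 1 signal intensity per probeset and array on a linear scale. It was made with MAS5 in GCOS (versions not given in the sources used here), and the 2% trimmed mean of every deposited column was 500.1. The number of arrays limits the precision. Of 15611 rows, 120 control probesets were left out. A platform annotation gave 9304 probesets 1 symbol, 195 several and 5992 none. All 67 members matched RefSeq gene records (Xenopus_laevis_v10.1) with the same symbol. Log2 signals, with nothing added and nothing renormalised, were compared as N1 minus WT with limma 3.58.1 in R 4.3.3 (lmFit and eBayes with a variance trend). The authors also used moderated linear models. Benjamini-Hochberg adjustment ran over all 15491 probesets. The p-values rest on the spread between pools. With 2 residual degrees of freedom, limma draws much of each probeset's variance from other probesets of similar level. An exact permutation test of 2 against 2 cannot go below 0.333. The fit was tested on simulated data with changes set in probesets at or above the median level. At an adjusted p under 0.05 it called 52% of 2-fold and 98.2% of 4-fold changes, with 9.6 false calls, as means over runs. A 2-fold change could therefore often be missed. Members and lists were chosen with earlier results of these data known. Members were named where the unadjusted p was under 0.05, where they had the 10 largest differences in each direction without overlap at or above the median level, for a set of core genes (ran, rcc1, rangap1, ranbp1, kpnb1, kpna2, xpo1, nutf2, nxf1, nxt1) and for genes with 3 or more probesets. The other members are given to account for all 67. The S copy of lamin B1 was added after its values were seen. Alternatives covered the variance trend, level filters, normalisation, 16 or 64 added before log2, a replicate block, each array left out and 1 probeset per gene.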

Additional observations from a re-analysis of the deposited data

How the results depend on the processing

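The members stayed lower in N1 on balance under every alternative run, while the counts moved. The median log2 difference (-0.26) was -0.37 with median centring, -0.23 and -0.16 with 16 and 64 added before log2, -0.19 with 1 probeset per gene, and -0.25 to -0.19 with an array left out. Members at an unadjusted p under 0.05 and lower in N1 numbered 8 (11.9%, against 4.29% of all probesets). They were 5 without the variance trend (7.46%, against 2.68%) and 13 with median centring (19.4%, against 6.64%). With 1 probeset per gene they were 4 (10.3%, against 4.17%). Those higher in N1 (1, against 6.82% of all probesets) were 0 with median centring, against 4.92%. The number of members at an adjusted p under 0.05 (0) moved when N1 replicate 2 was left out, as did that of all probesets. It was 1 of 67 with the replicate number as a block (ranbp1.L, adjusted p = 0.0271 from limma), beside 200 of all 15491 probesets. The labels do not say whether same-numbered arrays share more than a number. Their deviations correlated at 0.028 over all probesets, which cannot decide it, since an effect shared by some probesets could be missed. The block raised the calls over all probesets from 19 to 200. Members without overlap were 14 lower and 2 higher in N1 with 1 probeset per gene, beside 17.6% and 24.7% of all probesets. With the filter at the median level 3 were higher, beside 23.2%. With an array left out 33 to 42 were lower and 9 to 15 higher, where 28.7% to 35.7% of all probesets were lower and 36.4% to 47.3% higher. Over all probesets the 19 calls were 0 without the variance trend, 36 and 68 with filters at the median and at the 25th percentile, 10 with median centring, 6 with 64 added and 0 to 334 with an array left out. Of the other transport genes, 2 at that p were 0 without the variance trend, 4 with median centring and 0 to 7 with an array left out. Of all probesets, 2.68% were lower and 6.17% higher in N1 at an unadjusted p under 0.05 without the variance trend. With median centring these shares were 6.64% and 4.92%. With an array left out the shares of all probesets moved as well, so the counts of the other transport genes cannot be read alone. These repeats on all probesets and on the other transport genes were added after seeing the data.

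Of 38 members named with sensitivity values, 9 turned in sign under some alternative, all of them small in size or dim. With quantile normalisation the dim probesets of ranbp3.L (105 and 203 in N1) and of rcc1.S were at -0.020 and -0.18, and with median centring kpna2.S at -0.063. With an array left out the log2 difference ran from -0.74 to 0.18 for xpo1.S, -0.15 to 0.11 for kpna2.L, -0.091 to 0.18 for kpna2.S, -0.056 to 0.54 for the third probeset of kpna3.L, -0.52 to 0.42 and -0.17 to 0.093 for the dimmer and the brighter probeset of nxf1.S, -0.75 to 1.60 for the dim probeset of ranbp9.S, -0.35 to 0.61 for that of ranbp3.L and -0.68 to 1.05 for that of rcc1.S. The cause was not tested. Dim probesets differ widely between replicates and bound no difference closely.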
